A study of Mus musculus with 8 samples.

Results

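Cxcl9, Cxcl10 and Cxcl11, the 3 ligands of the chemokine receptor CXCR3, were followed in tumour endothelial cells (ECs) of 2 mouse breast tumour models after intratumoural PBS or cGAMP, the cyclic dinucleotide sensed by STING in the cytosol. The 3 members were chosen by name, and 2 of them were among the 20408 genes analysed here. ECs were taken as cells with at least 1 UMI (a counted transcript molecule) of Pecam1, the gene of CD31. They were 7159 of 8204 cells. Cxcl9 and Cxcl10 had a row in all 8 libraries, and Cxcl11 was not analysed here. There were 2 libraries in each of 4 groups, all harvested 3 h after the injection: spontaneous PBS and spontaneous cGAMP, from adult MMTV-PyMT mice, and implanted PBS and implanted cGAMP, from adult mice whose tumours grew from injected tumour cells. In the spontaneous model the MMTV promoter drives the PyMT oncogene in mammary epithelium. The implanted tumours grew in the mammary fat pad from cells of MMTV-PyMT tumour nodules that were briefly cultured and mixed with Matrigel. Labels name the C57BL/6 strain, whereas the methods name FVB for both models, so the strain is not settled. Live CD31+ cells without the leukocyte marker CD45 were sorted, so both the sort and the Pecam1 rule set which cells could enter.

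CXCR3 is carried by activated T cells and natural killer cells, and its ligands guide these cells into inflamed tissue. Cxcl9 is a classical target of interferon-γ, while Cxcl10 also responds strongly to type I interferon and to NF-κB. Endothelial cells can present these chemokines on the vessel wall, where they act on passing lymphocytes.

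In the GENCODE annotation of the mm10 assembly the members are neighbours on the minus strand of chromosome 5. Cxcl9 (ENSMUSG00000029417.9) spans bases 92321347 to 92328079 with up to 4 exons, and Cxcl10 (ENSMUSG00000034855.13) lies 18558 bases further on, at 92346638 to 92348889, also with up to 4 exons. Cxcl11 (ENSMUSG00000060183.6, 92359544 to 92365485) follows after another 10654 bases and is annotated as a polymorphic pseudogene. Cxcl10 and Cxcl11 lie inside Art3, a gene on the opposite strand, and 1 of the 19 Art3 transcripts has an exon that overlaps Cxcl10. Whether the counting used strand is not given in the sources used here, so Art3 is reported beside Cxcl10 below.

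The 250 bases before the start of each gene are shown because Cxcl9 and Cxcl10 moved together, and this is the sequence next to the start of transcription. They are from RefSeq (GRCm38.p6), 5′ to 3′ on the strand of the gene, at chr5:92328080-92328329 for Cxcl9 and chr5:92348890-92349139 for Cxcl10. No window of Cxcl11 was used. Capitals mark the letters GAAANNGAA, a short form of the interferon-stimulated response element, and GGGANTTCC, a short form of the κB element. Both were searched on both strands, and their matches did not overlap.
Cxcl9: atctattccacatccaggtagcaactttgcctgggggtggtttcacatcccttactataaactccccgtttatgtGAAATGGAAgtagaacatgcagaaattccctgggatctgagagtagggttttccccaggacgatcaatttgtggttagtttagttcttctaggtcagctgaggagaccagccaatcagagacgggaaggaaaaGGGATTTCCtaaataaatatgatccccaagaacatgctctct
Cxcl10: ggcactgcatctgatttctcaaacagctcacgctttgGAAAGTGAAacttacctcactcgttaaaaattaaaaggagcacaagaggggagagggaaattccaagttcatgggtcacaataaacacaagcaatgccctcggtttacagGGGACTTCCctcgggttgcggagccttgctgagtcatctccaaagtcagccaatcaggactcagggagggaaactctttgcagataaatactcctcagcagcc

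Each window held 1 match of each of these kinds. The letters TTCNNNGAA, a STAT-type palindrome, were also searched and had no match in either window. In Cxcl9 the interferon-type match was GAAATGGAA, at bases -175 to -167 from the start, and the κB-type match was GGGATTTCC, at -42 to -34. In Cxcl10 they were GAAAGTGAA, at -213 to -205, and GGGACTTCC, at -103 to -95. Of 32536 promoter windows of this length, 7.15% held the interferon-type letters, 1.44% the κB-type letters and 0.104% held both of these. The STAT-type letters were in 7.04% of windows. A match describes the letters only, and longer forms of these elements were not searched, so other elements may stand unmarked.

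The libraries held 97421522 UMIs in all, and ECs per library numbered 601 to 1529 with a median depth of 9523 to 14708 UMIs. Replicate 1 of implanted cGAMP stood apart, with a median of 3049 UMIs per EC and 37.9% of ECs under 2000 UMIs, against 3.28% to 10.6% elsewhere. Its ECs also carried more immune marker RNA (272 CPM summed over 11 markers, Ptprc at 24.7 CPM, against 18.0 to 83.2 CPM summed elsewhere) and more epithelial marker RNA (339 CPM over 6 markers, against 46.3 to 149 CPM). Mural markers summed to 426, 715 and 570 CPM in ECs of replicate 2 of spontaneous PBS and of both spontaneous cGAMP libraries, and to 75.3 to 202 CPM in the others. All 7 endothelial markers were detected in every library, at 4826 to 5978 CPM in sum, and libraries shared at most 3 cell barcodes in any pair.

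Levels are given as CPM, counts scaled to the same total in every cell and averaged over the ECs of a library. Cxcl9 was at 30.2 and 21.1 CPM in spontaneous PBS (276 and 232 UMIs) and at 1574 and 1382 CPM in spontaneous cGAMP (19090 and 16237 UMIs). In implanted PBS it was already at 1724 and 819 CPM (28392 and 17868 UMIs), and in implanted cGAMP at 2925 and 3750 CPM (46629 and 39695 UMIs). Spontaneous PBS was low and implanted cGAMP high, with no overlap with any other group, while the libraries of spontaneous cGAMP lay between those of implanted PBS. So the order of the means was 25.6 ± 6.45, 1271 ± 640, 1478 ± 136 and 3338 ± 583 CPM (mean ± SD, n = 2), and the middle pair did not differ beyond its spread. In such pooled means, fewer cells with the transcript and less of it per cell cannot be told apart, and the cells are therefore described one by one below.

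Cxcl10 followed the same order of groups at lower levels. It was at 21.4 and 11.6 CPM in spontaneous PBS (222 and 113 UMIs) and at 484 and 446 CPM in spontaneous cGAMP (6439 and 5386 UMIs). In implanted PBS it was at 400 and 136 CPM (6374 and 2939 UMIs) and in implanted cGAMP at 1039 and 1065 CPM (17198 and 11531 UMIs). No groups overlapped, but the 2 implanted PBS libraries lay far apart, at 268 ± 187 CPM (mean ± SD, n = 2) against 465 ± 27 CPM in spontaneous cGAMP, a pair that was not tested. The levels of Cxcl9 and Cxcl10 over the 8 libraries had a Pearson r of 0.983 on the log2(CPM + 1) scale, a description over libraries that fall into groups.

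**Figure D1:**
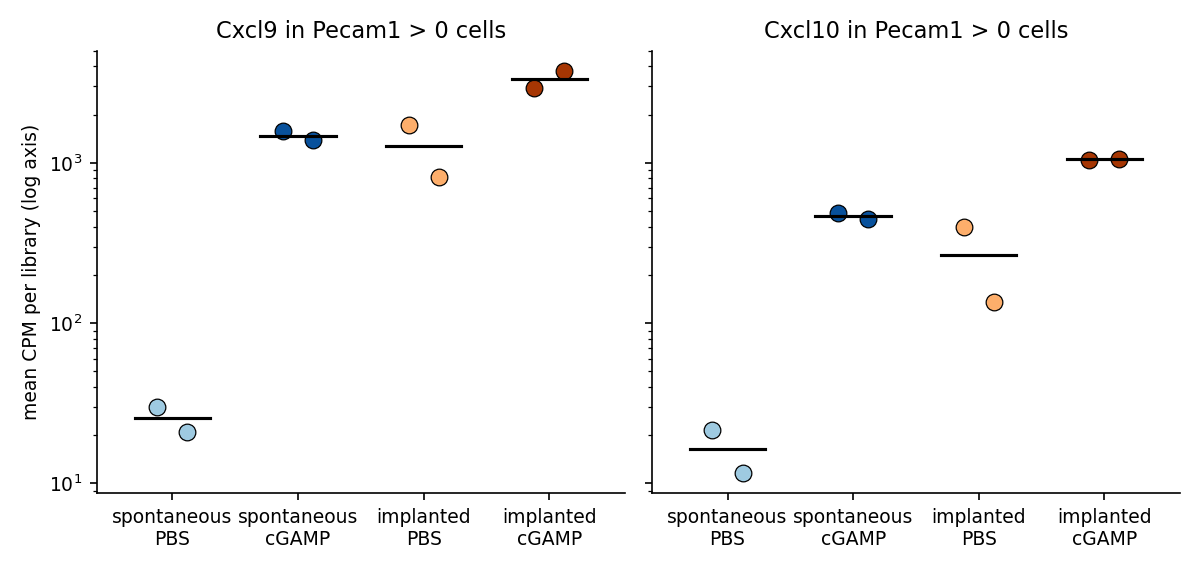
Mean level of Cxcl9 and Cxcl10 in Pecam1 > 0 cells, in CPM on a log axis, by group. Each point is 1 library and each line the mean of the 2 libraries of a group. For both genes the spontaneous PBS points lie far below the other 6 libraries, and the implanted cGAMP points lie highest.

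The first question was how cGAMP changed the ligands in the vessels of spontaneous tumours. Both rose. Cxcl9 rose by 5.81 ± 0.29 (log2 fold change of CPM + 1 ± SE, adjusted p = 1.5e-06) and Cxcl10 by 4.79 ± 0.41 (adjusted p = 5.6e-05), in both cGAMP libraries against both PBS libraries. They ranked 3 and 10 by fold change among 10424 genes tested, of which 5.09% were called higher and 7.59% lower. All adjusted p-values over genes are from limma with Benjamini-Hochberg adjustment over all genes tested. Nothing in the labels says more than that libraries are separate samples, and the methods count mice. The p-values therefore measure the spread between libraries of the same group, estimated in 1 fit over all 4 groups. That estimate also draws on groups outside a comparison. In ECs with no UMI of any immune marker the responses were 5.84 and 4.54, and in ECs carrying more endothelial markers than markers of any of 4 other cell types they were 5.77 and 4.69, both still called.

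In implanted tumours both ligands rose as well, from a higher level. Cxcl9 rose by 1.48 ± 0.29 (adjusted p = 0.00595) and Cxcl10 by 2.17 ± 0.41 (adjusted p = 0.00484), with no overlap between cGAMP and PBS libraries. In this comparison 8.6% of genes were called higher and 16.4% lower, and the ligands ranked 243 and 122 by fold change. The size depended on the controls: without replicate 2 of implanted PBS the values were 0.94 for Cxcl9 and 1.39 for Cxcl10, both still called. Immune marker RNA was also higher after cGAMP here, and in ECs without any immune marker UMI the responses were 1.5 and 2.09 (adjusted p = 0.0135 and 0.00792).

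The responses were then set against each other, implanted minus spontaneous. For Cxcl9 the difference was -4.34 ± 0.42 (adjusted p = 0.00601), the lowest value among the 10424 genes, where 0.201% were called higher and 0.46% lower. For Cxcl10 it was -2.62 ± 0.58 and was not called (adjusted p = 0.0914), at rank 10409 of 10424. The call for Cxcl9 was lost without either spontaneous cGAMP library (adjusted p = 0.0589 without replicate 1 and 0.0863 without replicate 2), without a filter on low values (0.148) and with a variance estimate that ignores the mean level (0.122), while its value stayed between -4.87 and -3.8 over all 22 alternatives. For Cxcl10 a call appeared without replicate 2 of implanted PBS (adjusted p = 0.00234), with UMIs summed per library (0.0389) and with cells thinned to 2000 UMIs (0.0381).

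The models were then compared with each other under each treatment. After PBS, Cxcl9 was higher in implanted than in spontaneous tumour ECs by 5.50 ± 0.29 (adjusted p = 3.1e-05), rank 2 of 10424, and Cxcl10 by 3.8 ± 0.41 (adjusted p = 0.000889), rank 8. Here 3.39% of genes were called higher and 4.44% lower in implanted tumours. After cGAMP the gap was 1.17 ± 0.29 for Cxcl9 (adjusted p = 0.0311) and 1.18 ± 0.41 for Cxcl10, which was not called (adjusted p = 0.0875), with 5.23% of genes called higher and 8.53% lower. These comparisons share libraries with the responses above and are no separate evidence. The call for Cxcl9 after cGAMP was lost without either spontaneous cGAMP library (adjusted p = 0.105 without replicate 1 and 0.189 without replicate 2) and without replicate 2 of implanted cGAMP (0.0907), while Cxcl10 was called without either implanted PBS library (0.0136 without replicate 1 and 0.0137 without replicate 2).

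**Figure D2:**
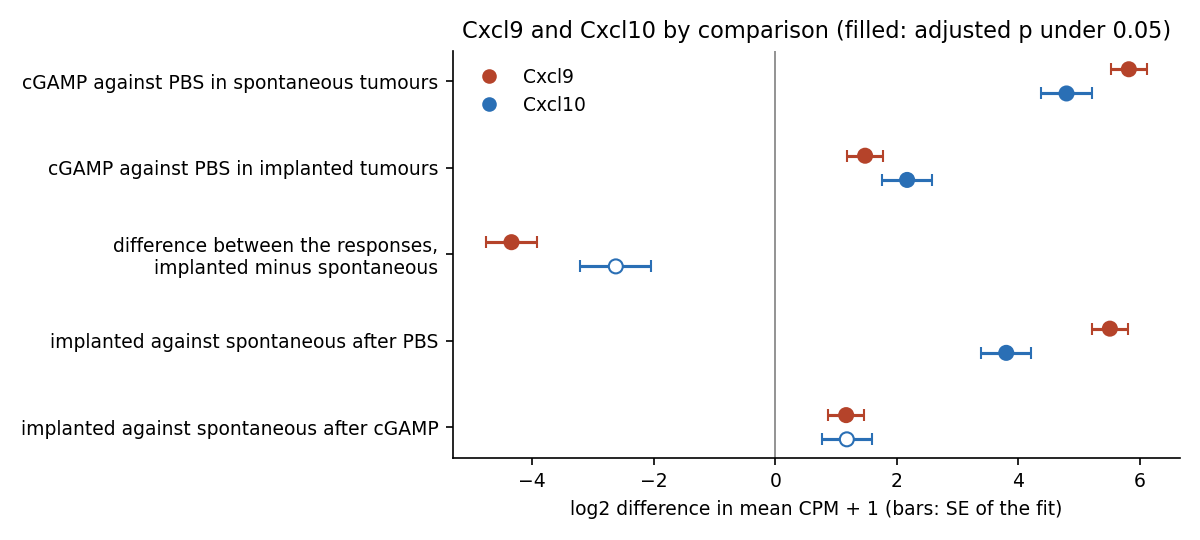
Log2 differences in mean CPM + 1 of Cxcl9 and Cxcl10 in 5 comparisons, with the SE of the fit as bars. Filled points were called at an adjusted p under 0.05 and open points were not. The difference between the responses and the difference between the models after PBS are larger for Cxcl9 than for Cxcl10.

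The balance of the ligands varied as well. With 3′ tag counting a transcript is counted once whatever its length, and on the CPM scale Cxcl9 stood at 1.41 and 1.81 times Cxcl10 in spontaneous PBS and at 3.25 and 3.1 times in spontaneous cGAMP. The ratio was 4.31 and 6.04 in implanted PBS and 2.82 and 3.52 in implanted cGAMP. Over all ECs it was thus lowest in spontaneous PBS and highest in implanted PBS, with no overlap of either with another group. In spontaneous PBS without the lymphatic cells described below, Cxcl9 was at 22.0 and 22.0 CPM and Cxcl10 at 8.35 and 5.09 CPM. The low ratio in spontaneous PBS therefore depends on few cells. The ratios are a description, with no test.

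Counting cells showed where the pooled means came from. To compare cells at equal depth, 2000 UMIs were drawn from each EC, leaving out 22 to 102 shallower ECs per library and 580 in replicate 1 of implanted cGAMP. Cxcl9 was then found in 3.59% and 3.43% of ECs in spontaneous PBS and in 52.8% and 52.9% in spontaneous cGAMP. It was found in 27% and 16.8% in implanted PBS and in 73.3% and 72.9% in implanted cGAMP. The widest Wilson 95% confidence interval of these shares was 49.0% to 56.7%, for replicate 2 of spontaneous cGAMP, and such intervals cover counting error only.

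Cells that held Cxcl9 held different amounts of it. At this depth they carried 1.74 UMIs on average in both spontaneous PBS libraries and 6.10 and 4.98 in spontaneous cGAMP. In implanted PBS the fewer positive cells carried 12.4 and 10.3, and in implanted cGAMP 8.49 and 9.84. A positive cell of an implanted PBS tumour thus held more Cxcl9 than one of a spontaneous cGAMP tumour in each pair of libraries, although the library means overlapped. The groups differ in how many cells cross the detection limit, which bears on a mean over positive cells, and the difference was not tested.

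For Cxcl10 the amounts per positive cell overlapped between these groups. It was found in 1.39% and 1.08% of ECs in spontaneous PBS, 25.5% and 25.6% in spontaneous cGAMP, 15.5% and 7.98% in implanted PBS and 51.0% and 40.4% in implanted cGAMP. Positive cells carried 3.67 and 2.5 UMIs in spontaneous PBS (12 and 6 cells), 3.65 and 3 in spontaneous cGAMP, 5.32 and 3.40 in implanted PBS and 4.59 and 4.78 in implanted cGAMP. Without thinning, Cxcl9 was found in 9.95% and 8.32%, 70.7% and 75.8%, 40.1% and 25.3%, and 79.7% and 81.8% of ECs in the same order of groups. The unthinned shares for Cxcl10 were 4.35% and 2.83%, 45.7% and 45.5%, 26.6% and 15.8%, and 60.0% and 62.6%.

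**Figure D3:**
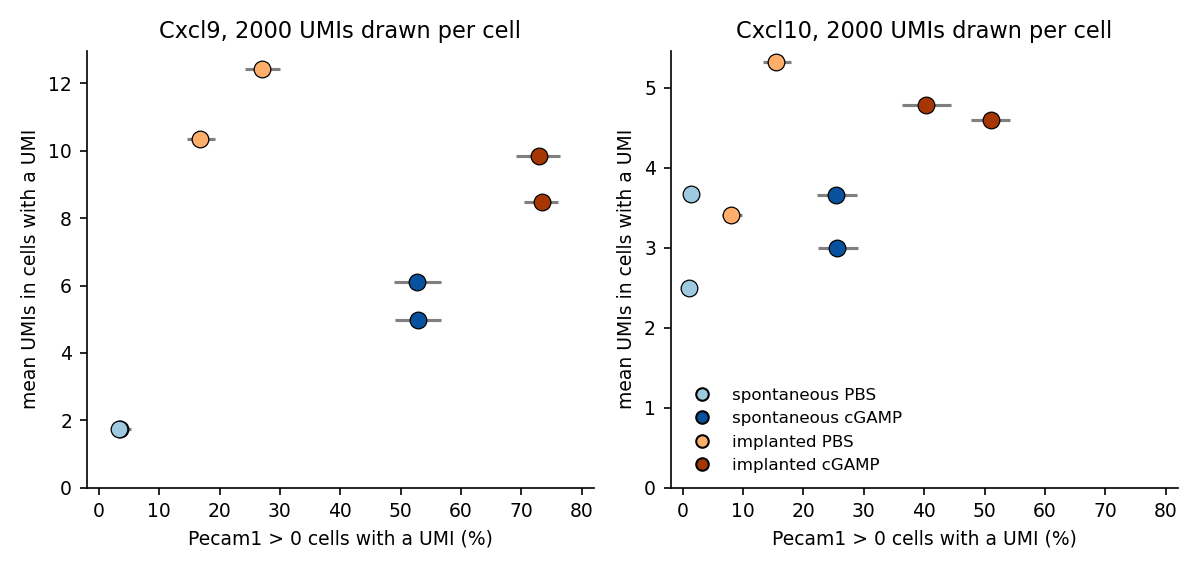
Share of Pecam1 > 0 cells with a UMI (horizontal, with Wilson 95% confidence intervals) against the mean number of UMIs in those cells (vertical), after drawing 2000 UMIs per cell. Each point is 1 library, and the 2 spontaneous PBS points of Cxcl9 nearly coincide. For Cxcl9, implanted PBS lies high and to the left, with 27% and 16.8% of cells but 12.4 and 10.3 UMIs in each.

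The transcripts were held by few cells, most of all after PBS. In spontaneous PBS, 6 of 965 and 4 of 601 ECs held 50% of the Cxcl9 level, and 2 and 3 ECs held 50% of the Cxcl10 level. In implanted PBS, 52 of 1000 and 29 of 1097 ECs held 50% of Cxcl9. After cGAMP the fewest cells that held 50% of Cxcl9 made up 8.51% and 7.5% of ECs in spontaneous and 14.5% and 13.1% in implanted tumours. For Cxcl10 these shares were 4.48% and 4.33% in spontaneous cGAMP and 8.37% and 6.13% in implanted cGAMP. The spontaneous PBS levels of both genes therefore rest on a handful of cells.

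Free RNA in the droplets can place UMIs in cells that do not express a gene. No cell type in these sorted libraries is known to lack the ligands, so the mural cells, the supporting cells of the vessel wall, are given instead. In spontaneous cGAMP, 32.1% of 28 and 42.4% of 33 Pecam1-negative mural-type cells held Cxcl9, at median depths of 7640 and 10953 UMIs, against 70.7% and 75.8% of ECs at 12611 and 14493 UMIs. In replicate 2 of spontaneous PBS 0 of 27 such cells held Cxcl9, which allows a share of up to 11.1%, and 8.32% of ECs did. Cxcl10 was found in 25% and 21.2% of the mural-type cells of spontaneous cGAMP, against 45.7% and 45.5% of ECs. By level they held Cxcl9 at 427 and 776 CPM and Cxcl10 at 485 and 138 CPM, so that Cxcl10 in replicate 1 was at the level of the ECs (484 CPM). In replicate 1 of implanted cGAMP, 50% of 16 epithelial-type cells (median 1805 UMIs) held Cxcl9 and 18.8% held Cxcl10, and of 19 immune-type cells (median 1259 UMIs) 42.1% and 68.4% did. The part of free RNA in the values was not tested.

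The ligands were detected together more often than their single shares alone would give. At 2000 UMIs, 18.8% and 17.6% of ECs held both in spontaneous cGAMP, against 13.4% and 13.5% for independent detection. In implanted PBS 12.5% and 5.84% held both, against 4.18% and 1.34%, and in implanted cGAMP 43.9% and 35.4%, against 37.4% and 29.4%. In spontaneous PBS 7 of 863 ECs held both in replicate 1 and 0 of 554 in replicate 2, which allows a share of up to 0.542%.

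Expressed as odds ratios, the association was 3.39 and 2.46 in spontaneous cGAMP, 20.4 and 20.1 in implanted PBS and 4.15 and 4.21 in implanted cGAMP. With all UMIs it was 4.99 and 4.54, 13.2 and 17.9, and 3.32 and 5.40, so implanted PBS was highest at either depth among these 3 groups. Correlations of log2(UMIs + 1) across the 911 and 1027 cells of implanted PBS were 0.635 and 0.559, and those in the 4 cGAMP libraries, over 565 to 949 cells, 0.304 to 0.391. Cells of a library share its preparation and depth, so these values describe it and carry no p.

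Detection was lopsided. Of the ECs with Cxcl10, 73.9% and 68.9% also held Cxcl9 in spontaneous cGAMP, 80.9% and 73.2% in implanted PBS and 86.2% and 87.7% in implanted cGAMP. Of the ECs with Cxcl9, 35.7% and 33.3%, 46.3% and 34.7%, and 59.9% and 48.5% held Cxcl10. Since Cxcl9 was the more abundant transcript, this order also follows its higher detection.

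Other chemokines were used for scale. Ccl5, which attracts T cells, had odds ratios with Cxcl9 of 3.26 and 2.27 in spontaneous cGAMP and 1.27 and 1.33 in implanted cGAMP, and with Cxcl10 of 2, 2.15, 1.65 and 1.64. With all UMIs the values with Cxcl9 were 2.27 and 2.06, and 1.15 and 2.09, and with 5000 UMIs drawn they were 1.91 and 1.85, and 0.61 and 1.32. Cxcl12, the ligand of CXCR4, had values below 1 with both ligands in all 4 cGAMP libraries, at 0.581 to 0.821 with Cxcl9 and 0.448 to 0.598 with Cxcl10. With 5000 UMIs drawn the values for Cxcl12 were also below 1, at 0.571 to 0.928 with Cxcl9 and 0.541 to 0.708 with Cxcl10. Without thinning they ranged from 0.724 to 1.24, so in the cGAMP libraries values above 1 were found only without thinning. In replicate 2 of spontaneous PBS the value of Cxcl12 with Cxcl9 was 1.17 with 5000 UMIs drawn. The part of depth in these values was not tested.

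**Figure D4:**
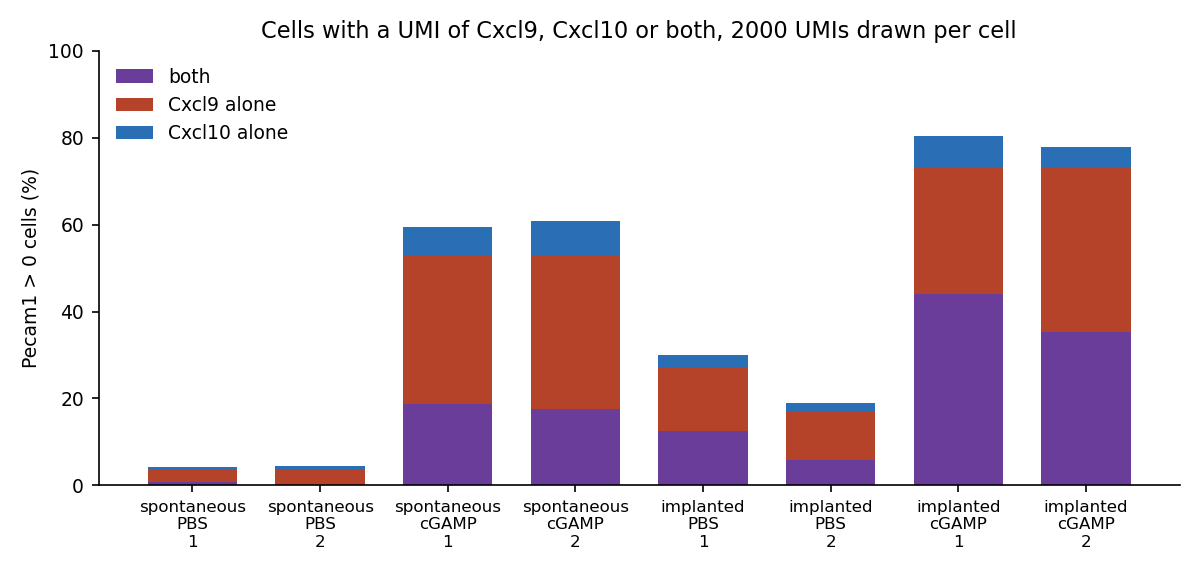
Percent of Pecam1 > 0 cells with a UMI of both ligands, of Cxcl9 alone or of Cxcl10 alone in each library, after drawing 2000 UMIs per cell. Cells with Cxcl10 alone are the smallest part of each bar in the implanted and cGAMP libraries.

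ECs were next sorted into vessel types by marker scores that hold none of the members. A cell joined the type with the highest score, if that was at least 0.5 SD units and 0.25 above the next, which gave 1054 arterial, 1175 venous, 513 AQP7 capillary (Aqp7, Cd36 and other lipid handling genes), 756 tip, 391 proliferative and 418 lymphatic cells, and left 2852 unassigned. These types are ranges of a score: within 0.1 of the cut lay 22 to 112 cells of a type on the inside and 17 to 137 on the outside. Many of the markers changed with cGAMP themselves, from 3 of 10 in the AQP7 capillary list to all 9 in the proliferative list. The proliferative type had under 20 cells in 1 cGAMP library and was not tested.

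Arterial cells were low in both ligands. After cGAMP, Cxcl9 was at 584 CPM against 1726 CPM in the other ECs of the same library and at 604 against 1483 CPM in spontaneous tumours, and at 1131 against 3161 and 1556 against 4124 CPM in implanted tumours. Cxcl10 was at 173 against 531, 196 against 478, 402 against 1123 and 406 against 1177 CPM in the same libraries. The log2 difference was -1.44 ± 0.06 for Cxcl9 (adjusted p = 1.0e-09) and -1.48 ± 0.08 for Cxcl10 (adjusted p = 5.4e-09), in a comparison that called 21.6% of genes in either direction.

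Before cGAMP the arterial gap was wider. In implanted PBS arterial cells held Cxcl9 at 68.1 and 59.5 CPM against 2030 and 1008 CPM, and Cxcl10 at 57.7 and 15.4 against 463 and 166 CPM. In spontaneous PBS, Cxcl10 was found in 0 of 155 and 0 of 89 arterial cells, which allows a share of up to 1.94% and 3.37%. Arterial cells were thus lower than the other ECs in 8 of 8 libraries for each ligand, and their own levels were higher after cGAMP than after PBS in both models with no overlap, which was not tested. Cxcl9 was found in 36.0% to 53.4% of them after cGAMP. The call held under all 9 alternatives.

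AQP7 capillary cells were low in Cxcl10 but less so in Cxcl9. Cxcl10 was at 142 against 518, 203 against 469, 746 against 1060 and 238 against 1134 CPM in the 4 cGAMP libraries, a log2 difference of -1.46 ± 0.19 (adjusted p = 0.0001) where 9.23% of genes were called. Cxcl9 differed by -0.58 ± 0.15 (adjusted p = 0.019), a call that was lost without replicate 1 of spontaneous cGAMP (-0.32, adjusted p = 0.156). After PBS these capillary cells were instead the higher in Cxcl9 in 4 of 4 libraries, at 109 and 78.4 CPM against 25.4 and 15.7 CPM in spontaneous tumours, from 32 and 62 UMIs, and at 2047 and 1165 against 1701 and 796 CPM in implanted tumours. In replicate 1 of implanted cGAMP they were at 2972 against 2922 CPM. Without thinning, 77.0%, 81.7%, 92.3% and 85.1% of these capillary cells held Cxcl9 in the 4 cGAMP libraries. Of all ECs 70.7%, 75.8%, 79.7% and 81.8% did. The median depth of the capillary cells was above that of all ECs only in replicate 1 of implanted cGAMP. Their Cxcl9 level was 3.99 to 13.2 times their Cxcl10 level in the 6 implanted and cGAMP libraries.

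Lymphatic cells were called lower in Cxcl9 but not in Cxcl10. Cxcl9 after cGAMP was at 1639 against 1571, 305 against 1417, 1130 against 3116 and 1996 against 3926 CPM, a log2 difference of -1.15 ± 0.26 (adjusted p = 0.00996) where 19.3% of genes were called, lost without replicate 1 of implanted cGAMP (adjusted p = 0.0629). Cxcl10 differed by -0.27 ± 0.50 (adjusted p = 0.776) and spread widely, from 57.1 against 458 to 1060 against 455 CPM, both in spontaneous cGAMP. Without the former library, replicate 2, the value was 0.64 and called (adjusted p = 0.0381). In 3 of the 4 cGAMP libraries the Cxcl9 level of lymphatic cells was 1 to 1.55 times their Cxcl10 level, and 5.35 times in replicate 2 of spontaneous cGAMP.

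In spontaneous PBS the few lymphatic cells held much of the Cxcl10. They were at 416 and 140 CPM against 8.35 and 5.09 CPM in the other ECs, with 123 of 222 and 55 of 113 UMIs. These UMIs sat in a few cells, since Cxcl10 was found in 22.6% of 31 and 13.8% of 29 lymphatic cells. In implanted PBS they were instead low, with Cxcl10 at 61.6 and 4.92 CPM against 420 and 141 CPM and Cxcl9 at 85.3 and 3.90 CPM against 1821 and 855 CPM. The last level rests on 11 UMIs.

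Tip and venous cells differed little from the rest. In tip cells, the leading cells of sprouts, Cxcl9 after cGAMP was higher in 4 of 4 libraries, by 0.38 ± 0.09 (adjusted p = 0.016), where 14.9% of genes were called. The call was lost without replicate 1 (adjusted p = 0.0911) or replicate 2 (0.0578) of spontaneous cGAMP, and Cxcl10 differed by 0.32 ± 0.13 (adjusted p = 0.128) and was called without replicate 2 of spontaneous cGAMP (0.0101). In venous cells, where leukocytes usually leave the blood, the differences were -0.13 ± 0.12 for Cxcl9 (adjusted p = 0.603) and 0.18 ± 0.19 for Cxcl10 (adjusted p = 0.637), with 12.9% of genes called. The sign of both venous values turned without replicate 2 of spontaneous cGAMP. After cGAMP, 76.8% to 95.3% of venous cells held Cxcl9 and 63.7% to 81.8% held Cxcl10, at median depths above that of all ECs of the library.

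**Figure D5:**
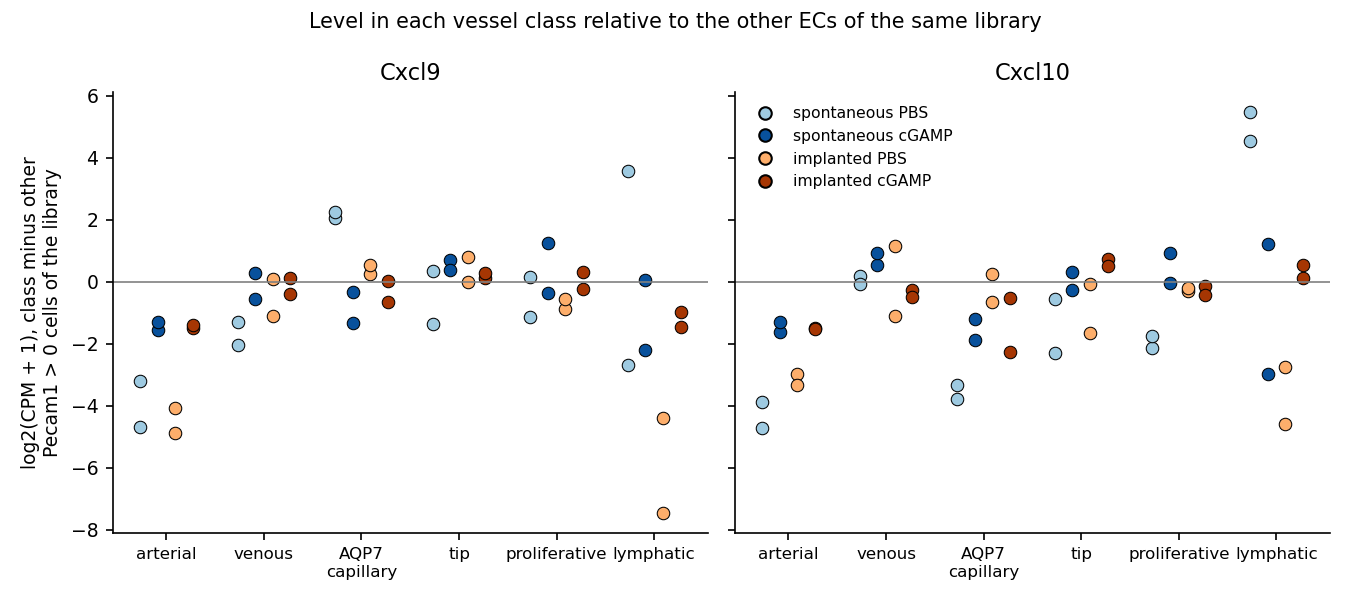
Log2(CPM + 1) of each ligand in a vessel type minus that in the other Pecam1 > 0 cells of the same library. Each point is 1 library, coloured by group. Arterial points lie below 0 in all 8 libraries for both ligands, and lymphatic points spread most widely.

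The receptor and the interferons were hardly measured in these cells. The share of all genes called higher, for the lists that follow, was 5.09% in the spontaneous and 8.6% in the implanted response, and that called lower 7.59% and 16.4%, with a median of -0.10 in both. Cxcr3 was at 0.0409 to 0.56 CPM, and Ifng, mostly a product of lymphocytes, was at 0 to 2.52 CPM, highest in replicate 1 of implanted cGAMP. Ifnb1, a type I interferon, was at 0 CPM in 6 libraries and at 0.0165 and 1.49 CPM in implanted cGAMP. Of the receptor and handling list, 7 of 9 genes were tested, 0 were called in the spontaneous response (7 not called, at a median log2 of -0.22) and 2 rose in the implanted response (median 0.22), Sdc4, a heparan sulphate proteoglycan that can bind chemokines, by 1.92 ± 0.31 (adjusted p = 0.00228) and Ackr2, a scavenging chemokine receptor, by 1.07 ± 0.19 (adjusted p = 0.00382).

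Cytokines that can induce the ligands, and a list of cytokine receptors and kinases, were then examined. Of 3 inducing cytokines tested, 0 rose in spontaneous and 3 in implanted tumours, with medians of 0.11 and 2.84. All 3 reached 5 CPM in implanted cGAMP alone, so the filter on low values favoured these calls. Neither the calls nor their count carry weight. Ifng, Ifnb1 and Il18, also listed, did not pass the filter. In implanted tumours Il1b rose by 4.14, Il27 by 2.84 and Tnf by 1.61 (adjusted p = 0.00181, 0.00485 and 0.00717), from 0.0333 to 2.99 CPM in implanted PBS to 5.87 to 33.9 CPM in implanted cGAMP. The differences between their responses were not called (adjusted p = 0.0967, 0.296 and 0.168). These are genes that immune cells express strongly, and immune marker RNA was higher in the same libraries, whose part in this was not tested. Of 9 cytokine receptors and kinases, with medians of -0.05 and -0.07, 0 were called in spontaneous tumours, while in implanted tumours Jak2 rose by 0.44 (adjusted p = 0.0238) and Ifnar1, Ifngr1 and Tnfrsf1a fell by 0.53, 0.39 and 0.25 on the log2 scale (adjusted p = 0.0169, 0.00834 and 0.0406). Without replicate 2 of implanted PBS the calls for Tnf (adjusted p = 0.0676), Jak2 (0.18), Ifnar1 (0.0551), Ifngr1 (0.0618) and Tnfrsf1a (0.12) were lost. Jak2 also lost its call without replicate 1 of implanted cGAMP (0.109), as did Ifnar1 (0.0662), which lost it without replicate 1 of implanted PBS too (0.103). The call for Tnfrsf1a was lost without any library but replicate 2 of implanted cGAMP, and its value was -0.17 without replicate 1 of that group. Tmem173, the gene of STING, was at 72.8 to 129 CPM and rose in the implanted response by 0.41 (adjusted p = 0.0414), as did the kinase Tbk1 by 0.67 (adjusted p = 0.000928). The value for Tmem173 was 0.23 without replicate 2 of implanted PBS (adjusted p = 0.282), and its call was lost without either spontaneous PBS library (0.0603 and 0.0597) or either implanted cGAMP library (0.0725 and 0.112). These were 2 of 3 DNA sensing genes tested, of which 0 were called in spontaneous tumours (medians 0.28 and 0.41), and neither difference between the responses was called (adjusted p = 0.805 and 0.296).

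Transcription factors of the interferon and NF-κB pathways were tested next. Of 14, 7 rose in spontaneous and 8 in implanted tumours and 0 fell, with medians of 0.72 and 0.47 against -0.10 over all genes in both responses. Irf7, a master factor of type I interferon responses, went from 20.2 and 27.2 to 1421 and 1393 CPM in spontaneous and from 96.9 and 65.0 to 1274 and 1540 CPM in implanted tumours. The difference between its responses was -1.72 (adjusted p = 0.029), lost without any 1 of the 4 spontaneous libraries (0.054 to 0.192). Batf2 rose by 2.77 and 1.65 and Stat2 by 2.26 and 1.62, where Batf2 in implanted tumours was at 1.01 without replicate 2 of implanted PBS. The NF-κB subunit genes Nfkb1, Nfkb2, Rela and Relb were not called in either response. Of 8 feedback inhibitors, 3 and 5 rose (medians 0.30 and 0.41), among them Usp18, which dampens interferon receptor signals, by 3.96 and 3.45, and Socs1, an inhibitor of Janus kinases, by 2.03 and 1.44. Tnfaip3 and Zfp36, brakes on NF-κB signals and on cytokine mRNA, rose in implanted tumours by 1.06 and 0.51 (adjusted p = 0.000635 and 0.0133) and were not called in spontaneous tumours, with differences between the responses that were not called (adjusted p = 0.192 and 0.569). The call for Zfp36 was lost without replicate 1 of implanted PBS (0.0993) or replicate 2 of implanted cGAMP (0.0549). Nuclear factors act as proteins, which these data do not measure.

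Other interferon-γ target genes were examined in the same comparisons. Of 17 such genes, a list chosen with earlier results of these data known, 16 rose in spontaneous and 8 in implanted tumours, 15 were higher in implanted than spontaneous tumours after PBS, and the difference between the responses was called lower for 11. Of all genes, 5.09%, 8.6%, 3.39% and 0.46% were so called. The median responses were 3.39 and 0.86, against -0.10 over all genes in both. Igtp and Gbp5, both interferon-induced GTPases, rose by 3.85 and 3.68 in spontaneous and by 1.32 and 1.32 in implanted tumours. The implanted values were 0.84 and 0.79 without replicate 2 of implanted PBS, both still called. The differences between the responses of Igtp, Gbp5, H2-Aa and Cd74 lost their calls without any 1 of the 4 spontaneous libraries (adjusted p of 0.0625 to 0.195). H2-Aa, of MHC class II, was at 3.15 and 1.43 CPM in spontaneous PBS, 43.9 and 53.4 in spontaneous cGAMP, 91.1 and 40.4 in implanted PBS and 108 and 67.8 in implanted cGAMP. Cd74, the MHC class II invariant chain, was at 13.9 and 19.6, 206 and 223, 568 and 253, and 641 and 476 CPM. Ccl5, by contrast, was at 1.27 and 0.242 CPM in spontaneous PBS and 4.84 and 1.33 CPM in implanted PBS, and reached 1919 and 1289 CPM in spontaneous and 2400 and 2223 CPM in implanted cGAMP.

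For Ccl5 the responses were 9.87 ± 0.40 and 9.29 ± 0.40, with a difference of -0.58 ± 0.56 that was not called (adjusted p = 0.701). Ccl5 passed the filter on low values through cGAMP libraries alone. Its PBS levels, 0.242 to 4.84 CPM, were close to the 1 CPM added before the log, so the size of its fold depends on that addition. Over alternatives its spontaneous response ranged from 8.10 to 11.2. The difference for Usp18 was -0.52 ± 0.31 and was not called either (adjusted p = 0.511). A difference that misses the threshold does not show that the responses were equal. Of 9 other chemokines tested, 3 rose in spontaneous and 6 in implanted tumours (medians 1.13 and 1.66), among them Ccl2 (3.32 and 4.58) and, in implanted tumours, Ccl7 (2.52) and Cxcl2 (1.66), while Cxcl12 fell by 0.86 on the log2 scale in implanted tumours (adjusted p = 0.0148). The calls for Ccl7 and Cxcl2 rested on single libraries. Ccl7 was at 1.42 without replicate 1 of implanted cGAMP (adjusted p = 0.198) and at 1.63 without replicate 2 of implanted PBS (0.249), and its call was also lost without either spontaneous cGAMP library. Cxcl2 was at 0.69 without replicate 1 of implanted cGAMP (adjusted p = 0.261) and at 2.63 without replicate 2 (0.00165), and its call was lost without any other library.

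Genes most like each ligand over the 8 libraries were named by Pearson r on the log2 scale among 8374 genes. For Cxcl9 they were Gvin1, Iigp1, Gbp2, Gbp5 and Nlrc5, with r of 0.989 to 0.996, and for Cxcl10 Tap1, Slc2a6, Gbp4, Gbp3 and Gm4951, with r of 0.994 to 0.997. Cxcl10 ranked 12 for Cxcl9, and Cxcl9 ranked 26 for Cxcl10. Gbp5, an interferon-induced GTPase, was at 11.2 and 12.3, 167 and 157, 176 and 83.7, and 314 and 296 CPM in the order of groups used above. Tap1, a peptide transporter of antigen presentation, was at 32.4 and 27.5, 231 and 238, 195 and 102, and 335 and 315 CPM. The likeness describes 4 groups of 2 libraries.

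Neighbours on chromosome 5 did not rise with cGAMP. Of 5 tested, 0 rose in either response, Naaa fell by 0.91 and 1.33 on the log2 scale (adjusted p = 0.0301 and 0.00273) and Sdad1 fell by 0.53 in spontaneous tumours (adjusted p = 0.0271). Both calls in spontaneous tumours were lost without any 1 of the 4 spontaneous libraries (adjusted p up to 0.142 for Naaa and 0.158 for Sdad1), and that of Naaa also without either implanted PBS library (0.0658 and 0.0624). After PBS, Naaa was higher in implanted than in spontaneous tumours by 0.91 (adjusted p = 0.0402), in the same direction as the ligands. Art3, which overlaps Cxcl10 on the other strand, was at 21.2 to 47.0 CPM in every library and was not called in either response (adjusted p = 0.653 and 0.439), and after cGAMP it was lower in implanted tumours by 0.82, opposite to Cxcl10 (adjusted p = 0.0261).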

How the data were processed

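The authors mapped reads to mm10 with Cell Ranger 3.0.0, used Seurat 3.1.1 per the labels, removed cells with fewer than 500 genes or over 10% mitochondrial transcripts and genes in fewer than 3 cells, and deposited natural log values, ln(1 + UMIs × 10000 / total). All values gave whole UMIs within a tolerance of 0.01. A count model was planned only for files of whole counts. As planned for log-normalised values, limma 3.58.1 (R 4.3.3) was used on log2(mean CPM + 1) over Pecam1 > 0 cells. It was 1 fit of 8 libraries, threshold 0.05, keeping genes that reached 5 CPM in 2 or more libraries. Vessel types were compared within the 4 cGAMP libraries, with library as a term. Thinning drew UMIs at random (seed 1). No doublet caller is named in the sources used here and none was run, so doublets remain. The members and gene lists were chosen with earlier results of these data known. From each pathway list at most 4 genes called in a response were named, by largest fold change. A gene that this rule names is not reported here. Other genes given values (Cxcr3, Ifng, Ifnb1, Art3, Cxcl12, and the NF-κB subunits) were chosen after their values were seen. The fit was also run on simulated data with known folds in spontaneous cGAMP, without the filter on low values. Only the spontaneous response was examined there, so that run does not bear on the other comparisons. Depth was 7863535 to 16506086 UMIs per library. For each library the supplement of the study lists cell numbers other than those deposited, so how cells were chosen is not settled.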

Additional observations from a re-analysis of the deposited data

Results flagged for a closer look

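The response of Cxcl9 to cGAMP differed between the models in the fit across all genes, at -4.34 (log2, implanted minus spontaneous), with every cGAMP library above both PBS libraries of its model. Among the other genes named, the same test called H2-Aa at -3.47, Cd74 at -3.08, Igtp at -2.53, Gbp5 at -2.36, Irf7 at -1.72 and Ackr2 at 1.62. These calls were lost under 4 (Cxcl9) to 12 (Ackr2) of 22 alternatives. For Cxcl9 they included leaving out either spontaneous cGAMP library (adjusted p = 0.0589 and 0.0863), and for each of the other genes leaving out any 1 of the 4 spontaneous libraries (0.054 to 0.195). Ackr2 also lost its call without replicate 1 of implanted PBS (0.139) or replicate 2 of implanted cGAMP (0.0508). The difference for Cxcl10 was not called.

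The ligands were also found in the Pecam1-negative cells, which entered only the alternative with all deposited cells. In spontaneous tumours Cxcl9 was at 1257 and 836 CPM in these cells after cGAMP against 0 and 4.43 CPM after PBS, and Cxcl10 at 231 and 242 against 0 and 0.562 CPM. In implanted tumours Cxcl10 was at 938 and 1723 CPM after cGAMP against 453 and 78.2 CPM after PBS. Cxcl9 was there at 2270 and 5416 against 2434 and 1572 CPM, so the groups overlapped. These cells numbered 50 to 99 per library and 496 in replicate 1 of implanted cGAMP, and many were shallow, with medians of 1105 to 2383 UMIs. By their markers 14 to 42 of them per library were endothelial-type, and 181 in replicate 1 of implanted cGAMP. In those 181 cells Cxcl9 was at 2946 CPM. The levels given here are therefore not those of other cell types alone.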

How the results depend on the processing

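Both responses and the gap after PBS kept direction and call for both ligands under all 22 alternatives, as did the arterial values and Cxcl10 in AQP7 capillary cells under all 9. For each change below the cause was not tested. Without a filter on low values, and with the variance trend left out, the difference between the responses of Cxcl9 was -4.34 and its gap after cGAMP 1.17, neither called. These settings called 0 genes for that difference with limma, and 1945 and 1273 genes had an unadjusted p under 0.05. Cxcl10 gained a call in the difference at -2.82 with summed UMIs and at -2.27 with thinned cells, and in the gap after cGAMP at 1.33 with thinned cells. Leaving out 1 library gave -4.87 to -3.8 and -3.40 to -1.84 for the differences of Cxcl9 and Cxcl10, and 0.99 to 1.35 and 1.12 to 1.24 for their gaps after cGAMP. A group left with 1 library is assumed to vary like the others.

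With the replicate number as a block the gap of Cxcl10 after cGAMP was called at 1.18 (adjusted p = 0.0433), and no other call for the ligands changed. The numbers do not pair the libraries, since deviations of same-numbered libraries correlated at -0.216 to 0.125.

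With lower score cuts venous Cxcl9 was at 0.016 and AQP7 capillary Cxcl9 at -0.45 (call lost, adjusted p = 0.0715), and without the markers called in a response venous Cxcl9 was at 0.18 and tip Cxcl10 at 0.42 (call gained, 0.00428). Values that kept their call but moved by over 1.5 times were arterial Cxcl9 (-2.26 with higher cuts, -2.82 over all 8 libraries), arterial Cxcl10 (-2.60 over all 8), AQP7 capillary Cxcl10 (-2.46 with higher cuts, -0.96 without those markers), tip Cxcl9 (0.57 with lower cuts, 0.72 without those markers) and lymphatic Cxcl9 (-1.75 with higher cuts). Over all 8 libraries venous Cxcl9 was at -0.61 (call gained, 0.0419), AQP7 capillary Cxcl9 at 0.35 (not called, 0.394), tip Cxcl9 at 0.16 (call lost, 0.519), tip Cxcl10 at -0.41, lymphatic Cxcl9 at -1.94 (call lost, 0.0906) and lymphatic Cxcl10 at 0.20. Leaving out 1 cGAMP library gave -0.27 to 0.011 and -0.072 to 0.40 for venous Cxcl9 and Cxcl10, -0.78 to -0.32 for AQP7 capillary Cxcl9, 0.26 to 0.46 and 0.19 to 0.52 for tip cells, and -1.55 to -0.79 and -0.76 to 0.64 for lymphatic cells. The median odds ratio of the ligands over 8 libraries was 4.18, and 5.94 with all UMIs.

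Genes called numbered 1322 (448 to 2839 over alternatives) in the spontaneous and 2609 (1265 to 3722) in the implanted response, 69 (0 to 171) for their difference, and 816 (212 to 1317) and 1434 (156 to 2069) between models after PBS and cGAMP. Median-of-ratios scaling raised the share of calls that were higher from 40.2% to 65.3%, 34.3% to 51.7%, 43.3% to 65.4% and 38.0% to 58.3% in the responses and gaps, and moved the median of all genes by about 0.1 on the log2 scale, far less than the changes of the ligands.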
